A study of Mus musculus with 6 samples.

Results

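The small integrin-binding ligand N-linked glycoproteins are 5 secreted phosphoproteins of the bone and tooth matrix. They are osteopontin (Spp1), bone sialoprotein (Ibsp), dentin matrix protein 1 (Dmp1), matrix extracellular phosphoglycoprotein (Mepe) and dentin sialophosphoprotein (Dspp). The 5 genes were selected by name from the 29616 genes of the expression table, and they were proposed with their values in the comparison of dexamethasone with control already known. Their values are therefore given as a description and no test of them is given. RNA was sequenced from bone cells of C57BL/6 mice in 6 libraries, 3 of the control group and 3 of the group treated with the synthetic glucocorticoid dexamethasone. Treatment started at 8 weeks of age with 0.08 µg/g daily and went on for 4 weeks, and the controls were littermates. The labels call the material bone cells, and the study's text describes Osteocalcin-positive cells sorted from demarrowed bones, with fixed and permeabilized cells stained by antibody for work on gene expression. The design text calls the libraries biological replicates, but no source used here says whether each holds RNA of 1 mouse or of a pool. The comparison asked what long-term glucocorticoid exposure does to cells of the osteoblast lineage in a mouse model of steroid-induced osteoporosis.

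These proteins are intrinsically disordered and rich in acidic residues. Their phosphorylated serines bind calcium, and an Arg-Gly-Asp motif binds integrins on bone cells. The genes lie next to each other and arose from tandem duplications of an ancestral gene related to SPARC, and bone sialoprotein is known to promote the first crystals of hydroxyapatite whereas osteopontin restrains their growth. Dmp1 and Mepe are best known from osteocytes, the cells buried in bone, where loss of Dmp1 raises the phosphate-wasting hormone FGF23. Dspp is known mainly from odontoblasts, the cells that lay down dentin.

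In the GENCODE M21 annotation all 5 genes lay on chromosome 5, on the plus strand, in the order Dspp, Dmp1, Ibsp, Mepe and Spp1. The RefSeq promoter table (GRCm38.p6) held 4 of the 5 genes. The reads themselves were aligned to GRCm39, so these coordinates belong to the promoter table only. In gene orientation, each of these 4 genes had a promoter window with ATTGG, which is CCAAT on the other strand, followed after 21 bases by TTTAAA or TTTATA. The 37-base stretches that start at ATTGG are shown because they let the family's core promoters be compared base by base, and capitals mark the paired motifs:
Spp1, chr5:104435065-104435101, plus strand: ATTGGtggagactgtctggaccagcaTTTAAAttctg
Dmp1, chr5:104202560-104202596, plus strand: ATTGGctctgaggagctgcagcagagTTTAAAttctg
Ibsp, chr5:104299233-104299269, plus strand: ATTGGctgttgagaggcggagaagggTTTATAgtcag
Mepe, chr5:104325308-104325344, plus strand: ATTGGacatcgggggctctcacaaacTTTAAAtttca

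Counted from the annotated start, with -1 as the last base before it, ATTGG began at -46 in Spp1, at -57 from the downstream start of Dmp1, at -54 in Ibsp and at -21 in Mepe. In Mepe the second motif began at transcribed base 6, after the annotated start. The windows of the upstream Dmp1 start and of a downstream Spp1 start did not hold the pattern. Of the 37 bases, 25 were identical between Dmp1 and Spp1 and 25 between Dmp1 and Ibsp. The figure was 22 between Dmp1 and Mepe, 19 between Ibsp and Spp1, 18 between Mepe and Spp1 and 16 between Ibsp and Mepe. These figures include the letters of the paired motifs, by which the stretches were found. No level for unrelated stretches was worked out, so likeness beyond the motifs is not read from them. This spaced pattern was chosen after the sequences were seen, searched in gene orientation from 250 bases before to 50 bases after each start, and was present in 17 of 32851 promoter windows (0.0518%), which belong to 13 genes. The other 9 genes were Gm30256, Gm33539, Gm40986, Gm42352, Mbd3, Olfr776, Olfr799, Sost and Vsnl1. Sost encodes sclerostin, an osteocyte inhibitor of bone formation. Only 1 of these 9 genes was abundant enough to be tested for a response to dexamethasone, and it did not pass the test.

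The 250 bases before the start are shown for the 3 most abundant members in the dexamethasone libraries, which differed in direction. On either strand, capitals mark the TATA box letters TATAAA, the related letters TTTAAA, the CCAAT box, the RUNX core TGTGGT and the letters AGAACA, the core of a glucocorticoid receptor site:
Spp1, chr5:104434861-104435110, plus strand: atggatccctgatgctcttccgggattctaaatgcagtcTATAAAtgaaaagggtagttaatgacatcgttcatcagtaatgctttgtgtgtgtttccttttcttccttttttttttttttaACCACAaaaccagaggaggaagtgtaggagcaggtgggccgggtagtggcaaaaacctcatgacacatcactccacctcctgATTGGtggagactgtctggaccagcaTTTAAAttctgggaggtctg
Dmp1, chr5:104202367-104202616, plus strand, downstream start: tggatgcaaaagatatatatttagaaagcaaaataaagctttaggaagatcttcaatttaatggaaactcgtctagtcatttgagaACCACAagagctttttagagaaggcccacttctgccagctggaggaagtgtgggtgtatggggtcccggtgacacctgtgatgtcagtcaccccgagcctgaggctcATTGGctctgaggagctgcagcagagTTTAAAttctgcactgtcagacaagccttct
Ibsp, chr5:104299037-104299286, plus strand: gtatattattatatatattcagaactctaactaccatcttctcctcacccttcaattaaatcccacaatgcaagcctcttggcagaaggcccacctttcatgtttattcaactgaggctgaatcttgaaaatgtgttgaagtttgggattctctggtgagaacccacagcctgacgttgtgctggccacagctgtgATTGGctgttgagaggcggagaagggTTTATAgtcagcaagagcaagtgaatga

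The RUNX core TGTGGT, searched on both strands, was found once in the Spp1 window (position -128), once in the downstream Dmp1 window (position -164) and in the Mepe window at positions -118 and -80, and 16.8% of all windows held it. No match was found in the Ibsp window. AGAACA was found at position -135 from the upstream start of Dmp1 and at transcribed base 17 of Ibsp, and 19.0% of all windows held it. CCAAT was held by 37.4% of all windows, TTTAAA by 13.2% and TATAAA by 13.6%, and TTTATA is TATAAA read on the other strand. Homeodomain letters TAATTA were found in the Mepe window and in the window of a downstream Spp1 start, against 5.29% of all windows, E box letters CANNTG in windows of all 4 genes, against 72.3%, and TGACGTCA, the cyclic AMP response element, in none, against 1.79%. These are matches of letters, and binding was not measured.

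The deposited values are read counts divided by a size factor per library (normalized counts). The libraries held between 72596611 and 89910728 reads, and every value came back as a whole number of reads, so a count of 0 allows up to 3 reads in any library, a limit that covers counting error only. Of the 5 members, 4 had a mean of at least 10 normalized counts and entered the fit. With dexamethasone, 2 of these 4 (Spp1 and Dmp1) were past the call rule in the higher direction, where 11.7% of all 17442 tested genes were. In the lower direction 1 of the 4 (Ibsp) was past it, against 10.6% of all tested genes. The rule asked limma, an empirical Bayes linear model, for an adjusted p below 0.05 together with a change of at least 1 on the log2 scale. In all 4 the control and dexamethasone values did not overlap, which was also so for 74.7% of all tested genes. Since the members were chosen with this contrast known, nothing is read from these counts. P-values given below for other genes measure only the spread between these libraries. In bulk RNA, a change in the number of cells of a type and a change in RNA per cell cannot be told apart.

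Osteopontin carried the family's transcript pool. Spp1 (ENSMUSG00000029304) stood at 32469, 34314 and 34003 normalized counts in control replicates 1, 2 and 3. It stood at 1291250.2, 1246067 and 1301705 in dexamethasone replicates 1, 2 and 3. The lowest dexamethasone library was far above the highest control library, and replicates varied little, with a coefficient of variation of 2.94% in control and 2.31% with dexamethasone. The mean went from 33595 ± 988 to 1279674 ± 29571 (SD, n = 3 each), a ratio of 38.1. On the log2(value + 1) scale the difference was 5.25 with a standard error of 0.049, the 54th highest of the 17442 tested genes. Spp1 transcripts took 0.0426%, 0.0432% and 0.0438% of all reads in the control libraries and 1.51%, 1.51% and 1.54% in the dexamethasone libraries. Its rank by normalized count within a library was between 282 and 296 in controls and between 1 and 3 with dexamethasone, so it was among the most abundant transcripts of every treated library. The study itself describes the opposite direction, a marked loss of osteopontin with dexamethasone, in cells traced from genetically labelled osteoblasts. That cell preparation differs from the Osteocalcin-positive cells described for sequencing. For Osteocalcin-positive cells the study also reports lower osteoblast-lineage markers by real-time PCR. Its text does not name those markers, and osteopontin is among its listed primers. It further describes ossification markers as lower in the sequencing itself. The reason for the difference in direction was not tested.

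**Figure D1:**
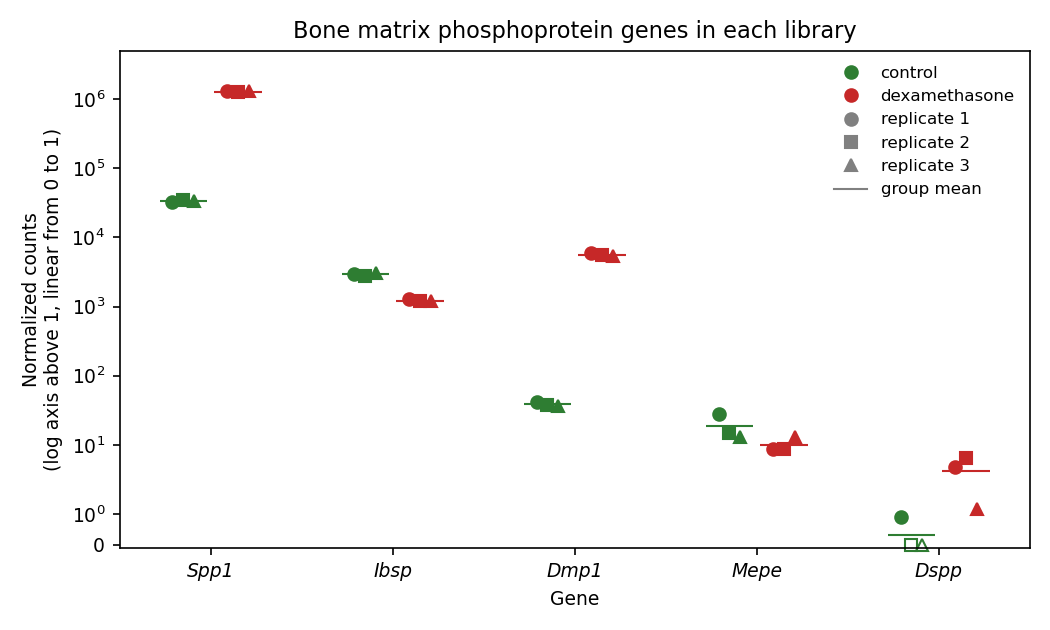
Normalized counts (vertical axis, logarithmic above 1 and linear from 0 to 1) of the 5 genes in each of the 6 libraries, green for control and red for dexamethasone, with a marker shape per replicate, open markers for a value of 0 and lines at the group means. Spp1 and Dmp1 lay higher in all 3 dexamethasone libraries, Ibsp lay lower, and Mepe and Dspp stayed near the floor.

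Part of the Spp1 locus is shared with another annotated transcript. In GENCODE M21, 18.75% of the Spp1 exon bases overlap Gm42793, a transcript of uncertain coding status on the same strand, and reads from those bases cannot be given to either gene with certainty. Gm42793 stood at 42.2, 36.2 and 36.9 normalized counts in control and at 916, 864 and 794 with dexamethasone, a log2 difference of 4.45 (SE 0.114, limma adjusted p = 2.93e-21). Its level was small beside that of Spp1 in all 6 libraries. The exons of the other 4 members overlap no other annotated gene on either strand.

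Dmp1, which binds calcium and is cleaved into fragments that act in the matrix of osteocytes, had a larger ratio than Spp1 at a far lower level. Dmp1 (ENSMUSG00000029307) stood at 41.3, 38.2 and 36.03 normalized counts in the control libraries, from 45, 39 and 41 reads. It stood at 5981, 5605 and 5331 in the dexamethasone libraries, from 6270, 5142 and 4585 reads. All 3 dexamethasone libraries were high and all 3 controls low, with a mean of 38.5 ± 2.66 against 5639 ± 326 (SD, n = 3 each). The ratio was 146 and the log2 difference 7.16 (SE 0.0767), the 15th highest of all tested genes. Within libraries, Dmp1 ranked between 13666 and 13894 in control and between 3459 and 3741 with dexamethasone. Even so, it stayed far below Spp1 in every treated library.

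Bone sialoprotein went the other way. Ibsp (ENSMUSG00000029306), whose product promotes crystal formation, stood at 2925, 2761 and 3066 normalized counts in control. It stood at 1271, 1184 and 1184 with dexamethasone, so that each dexamethasone library lay below each control library. The mean went from 2917 ± 152 to 1213 ± 50.1 (SD, n = 3 each), which is 2.41-fold lower, with a log2 difference of -1.27 (SE 0.0487). Among all tested genes this was the 1257th lowest difference, a much less extreme position than those of Spp1 and Dmp1.

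Mepe and Dspp were close to the limit of detection. Mepe (ENSMUSG00000053863), whose acidic C-terminal peptide inhibits mineralization, had 30, 15 and 15 reads in control replicates 1, 2 and 3 and 9, 8 and 11 reads in dexamethasone replicates 1, 2 and 3. These are 27.5, 14.7 and 13.2 against 8.59, 8.72 and 12.8 normalized counts, or 18.5 ± 7.89 against 10.03 ± 2.39 (SD, n = 3 each). The groups were separated only by the gap between 13.2 and 12.8, and control replicate 1 stood above the others. The exact Poisson 95% interval was 8.40 to 24.7 for 15 reads and 5.49 to 19.7 for 11 reads, so the nearest libraries were not distinguishable at this depth. The log2 difference was -0.77 (SE 0.382), not past the call rule, and -0.46 without control replicate 1. The ratio of summed reads, 28 against 60 scaled for depth, was 0.537 (95% interval 0.330 to 0.854, counting error only).

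Dspp (ENSMUSG00000053268), cleaved after secretion into the main noncollagenous proteins of dentin, had 1, 0 and 0 reads in control and 5, 6 and 1 reads with dexamethasone. All 3 controls were within the limit that a count of 0 allows, as was dexamethasone replicate 3, and the gene was not tested. The ratio of summed reads was 13.8, with a 95% interval from 2.04 to 589.8 that covers counting error only, so its size was not determined at this depth.

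**Figure D2:**
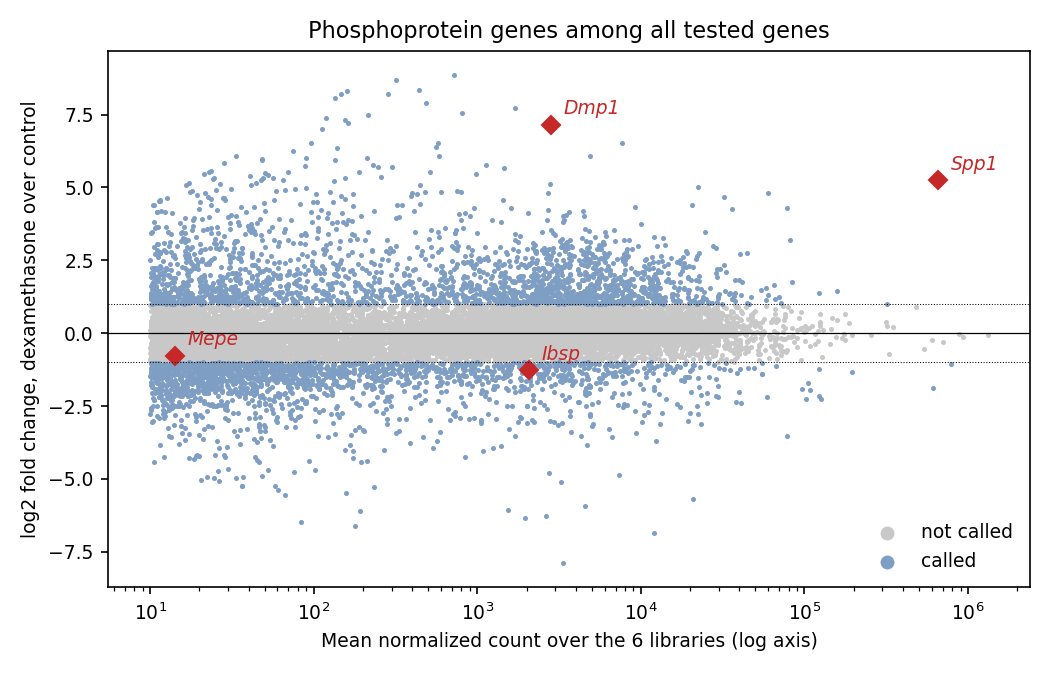
Log2 fold change, dexamethasone over control (vertical axis), against the mean normalized count over the 6 libraries (horizontal log axis) for the 17442 tested genes, with called genes in blue, others in grey and the 4 tested members as red diamonds. Spp1 lies at high abundance with a difference of 5.25, Dmp1 at 7.16 in the middle of the abundance range, Ibsp at -1.27 just past the dotted line at -1, and Mepe at -0.77 near the lowest abundance tested.

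Levels of different genes were compared per kilobase of merged exons. In control libraries the order was Spp1 (20386 ± 599 normalized counts per kilobase), Ibsp (1411 ± 73.7), Dmp1 (13.9 ± 0.962), Mepe (11.0 ± 4.69) and Dspp (0.0691 ± 0.120), all SD with n = 3. Dmp1, at 13.04 to 14.9 per kilobase, and Mepe, at 7.84 to 16.4, were neighbours whose ranges overlapped. With dexamethasone the order was Spp1 (776501 ± 17943), Dmp1 (2040 ± 118), Ibsp (586 ± 24.2), Mepe (5.96 ± 1.42) and Dspp (0.938 ± 0.618). Dmp1 thus stood above Ibsp in every dexamethasone library, after standing below it in every control library.

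Composition of the family moved with these levels. Per exon length, Spp1 made up 93.4% ± 0.401 of the members' sum in control and 99.7% ± 0.0193 with dexamethasone. The share of Ibsp was 6.47% ± 0.388 in control and 0.0753% ± 0.00295 with dexamethasone, and that of Dmp1 was 0.0639% ± 0.00607 and 0.262% ± 0.0165. As a share of all reads, the 5 genes together took between 0.0465% and 0.0478% of each control library and between 1.51% and 1.55% of each dexamethasone library. Nearly all of that difference was Spp1.

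The response was uneven across the gene cluster and its flanks. Of 11 other protein-coding genes annotated within 500 kilobases of the cluster, 10 were in the table and 6 were tested, of which 2 passed the test in the higher direction and 0 in the lower by limma. Nudt9, an ADP-ribose hydrolase of mitochondria, rose from 2946 ± 87.9 to 7187 ± 405 normalized counts (SD, n = 3 each), a log2 difference of 1.29 (SE 0.0419, limma adjusted p = 4.69e-19). Sparcl1, a secreted relative of SPARC that lies next to Dspp, rose from 2830 ± 132 to 6556 ± 522, a log2 difference of 1.21 (SE 0.0481, limma adjusted p = 2.96e-17). The log2 difference of the other 4 was 0.02 for Aff1, -0.55 for Klhl8, -0.04 for Hsd17b11 and 0.10 for Pkd2, the polycystin gene on the far side of Spp1. Klhl8 passed the adjusted p (6.36e-10) but not the requirement on size. The signs of Aff1 and Pkd2 were reversed when libraries were scaled to the same total or quantile-normalized. Ibsp, past the call rule in the lower direction, and Mepe, which was not called, lie between Dmp1 and Spp1. On the whole chromosome, 105 of 809 tested protein-coding genes were called higher (12.98%) and 58 lower (7.17%).

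**Figure D3:**
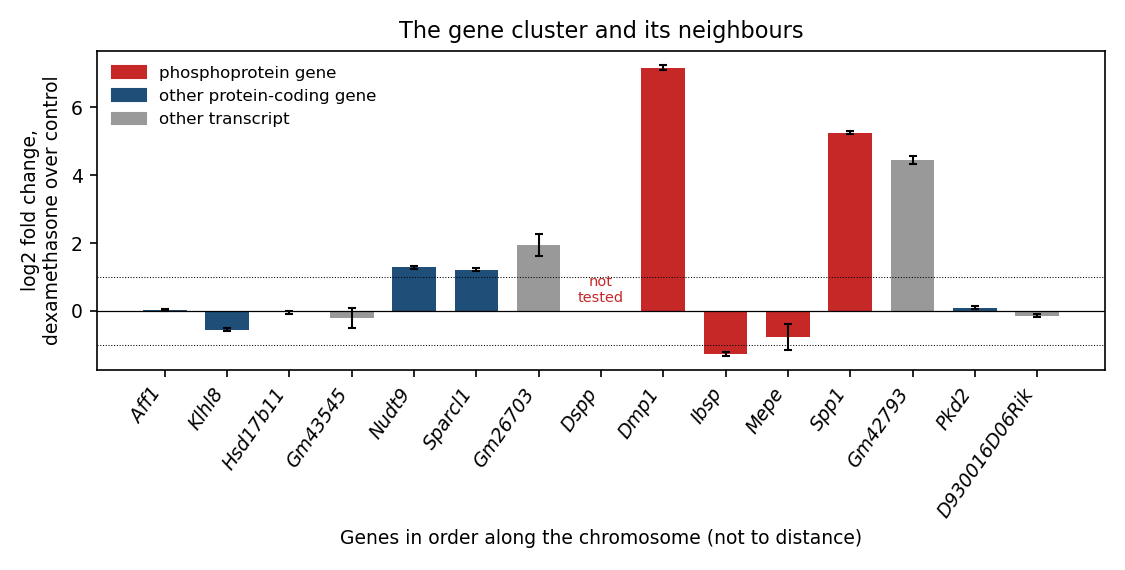
Log2 fold change, dexamethasone over control (vertical axis, bars from 0, error bars are the standard error of the fit), of the tested genes at the cluster in their order along the chromosome, with members in red, other protein-coding genes in blue, other transcripts in grey and dotted lines at 1 and -1. Dmp1 (7.16) and Spp1 (5.25) stand up with Ibsp (-1.27) and Mepe (-0.77) between them, and Nudt9 (1.29) and Sparcl1 (1.21) are the raised protein-coding neighbours.

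The matrix and enzyme partners of the family were examined through 6 lists with 70 different genes, of which 62 were in the table and 53 were tested. Among these 53 genes, 12 were called higher (22.6%) and 18 lower (34.0%), against 11.7% and 10.6% of all tested genes. Their median log2 difference was -0.39, against 0.00071 over all tested genes. In the list counts below, rose and fell mean called higher and called lower. The shares of 11.7% and 10.6% are the background for each partner list and marker list below. The lists were drawn up with earlier results of these data known. Fam20c, the Golgi kinase that phosphorylates the secreted members on their Ser-x-Glu motifs, rose from 1469 ± 68.0 to 7533 ± 537 normalized counts (SD, n = 3 each). Its values were 1425, 1435 and 1548 in control against 8145, 7142 and 7310 with dexamethasone, a log2 difference of 2.36 (SE 0.0474, limma adjusted p = 2.12e-23). Fam20a, a pseudokinase that activates Fam20c, had a log2 difference of -0.90, and Fam20b, a xylose kinase, had 0.08. Neither passed the call rule, although Fam20a did under same-total scaling (-1.01), and the median of these 3 genes was 0.08.

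Receptors that read the Arg-Gly-Asp motif did not move together. Of 11 receptor and binding-partner genes, 10 were tested, 3 rose and 2 fell (median log2 difference 0.29). Itga5, a fibronectin and osteopontin receptor subunit, rose from 10563 ± 259 to 53791 ± 2789 normalized counts (log2 difference 2.35, SE 0.039, limma adjusted p = 4.71e-25). Itgb3, the partner of the αv chain in the main osteopontin receptor, rose by 1.85 on the log2 scale, whereas Itgav itself had a difference of 0.05 and Itgb1 of 0.11, neither called, and the sign for Itgav was reversed under same-total scaling and quantile normalization. Cd44, a hyaluronan receptor that also binds osteopontin, had a difference of 0.47 and was not called. Itga8 and Itga9 fell, with log2 differences of -1.72 and -1.24.

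Of 16 listed genes of proteases and of 1 phosphatase, Acp5, that act on the members, 9 were tested, 1 rose and 4 fell (median -0.65). The most abundant were Mmp2, which fell by 1.02 on the log2 scale, Mmp14, which fell by 1.24, and the lysosomal protease Ctsb, whose difference was 0.00485 and changed sign with scaling and tool. The call for Mmp2 was lost without control replicate 2 (-0.9995), which left 3 genes of the list called lower. Without dexamethasone replicate 2 the calls for Mmp2 (-0.987) and Mmp9 were both lost, which left 2. Phex, the membrane peptidase that degrades the acidic peptide of Mepe, had 0.60, and Bmp1, which cleaves Dmp1 and Dspp, had 0.36, and neither was called. Acp5, the phosphatase that removes phosphate from osteopontin, had 0 reads in all 3 control libraries and 7, 26 and 17 reads with dexamethasone, and was below the abundance for testing. Without any 1 of the control libraries, or with no filter on low values, Acp5 entered the test and was called, which made 2 genes of the list higher.

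Among 17 transcription factors known to act on these promoters, all 17 were tested, 1 rose and 6 fell (median -0.57). Runx2, a member of the RUNX family, fell from 15301 ± 449 to 4541 ± 248 normalized counts (log2 difference -1.75, SE 0.0397, limma adjusted p = 2.42e-22). Letters of the RUNX core are marked in the Spp1 and Dmp1 sequences above, and binding of Runx2 to them was not measured. Sp7 (Osterix) fell by 1.86, Dlx5 by 1.45, Vdr by 1.53 and Jund by 1.49 on the log2 scale. Hey1, a Notch and BMP target, fell from 106 ± 4.33 to 6.30 ± 1.17 normalized counts (-3.88, SE 0.264). Jun, an AP-1 subunit, was the only factor called higher (1.58). Ets1 had a difference of 0.93, short of the requirement on size. On adjusted p alone, 5 of the 17 factors were higher and 11 lower. The glucocorticoid receptor gene Nr3c1 had a difference of -0.92 and was not called, although it passed under same-total scaling (-1.04) and quantile normalization (-1.12). Spp1 and Dmp1 were thus higher in the same libraries in which Runx2 and Sp7 were lower.

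Mineral and phosphate partners were split, with 5 of 12 tested genes higher and 5 lower (16 listed, median -0.50). Mgp, matrix Gla protein, an inhibitor of calcification, rose from 16246 ± 903 to 147425 ± 5480 normalized counts (3.18, SE 0.043, limma adjusted p = 1.21e-26). Ank, a membrane protein that lets out ATP and pyrophosphate, rose from 6192 ± 238 to 49165 ± 1350 (2.99, SE 0.037). Enpp1, which makes pyrophosphate from ATP, had 4, 2 and 2 reads in control and 293, 256 and 224 with dexamethasone and was called higher. Among the genes that fell were Alpl, the phosphatase that removes pyrophosphate (-2.45), Bglap and Bglap2, which encode osteocalcin (-3.05 and -3.33), Col1a1 (-1.88) and Col1a2 (-1.05). The call for Col1a2 was lost under quantile normalization (-0.995). Fgf23 and Sost are not among the genes analysed here.

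Relatives of the family differed widely in level. Of 7 listed relatives, 2 were tested, Sparc, which fell from 278239 ± 5441 to 111087 ± 4043 normalized counts (-1.33), and Sparcl1, given above. The enamel genes Enam and Amelx had at most 3 reads in any library.

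**Figure D4:**
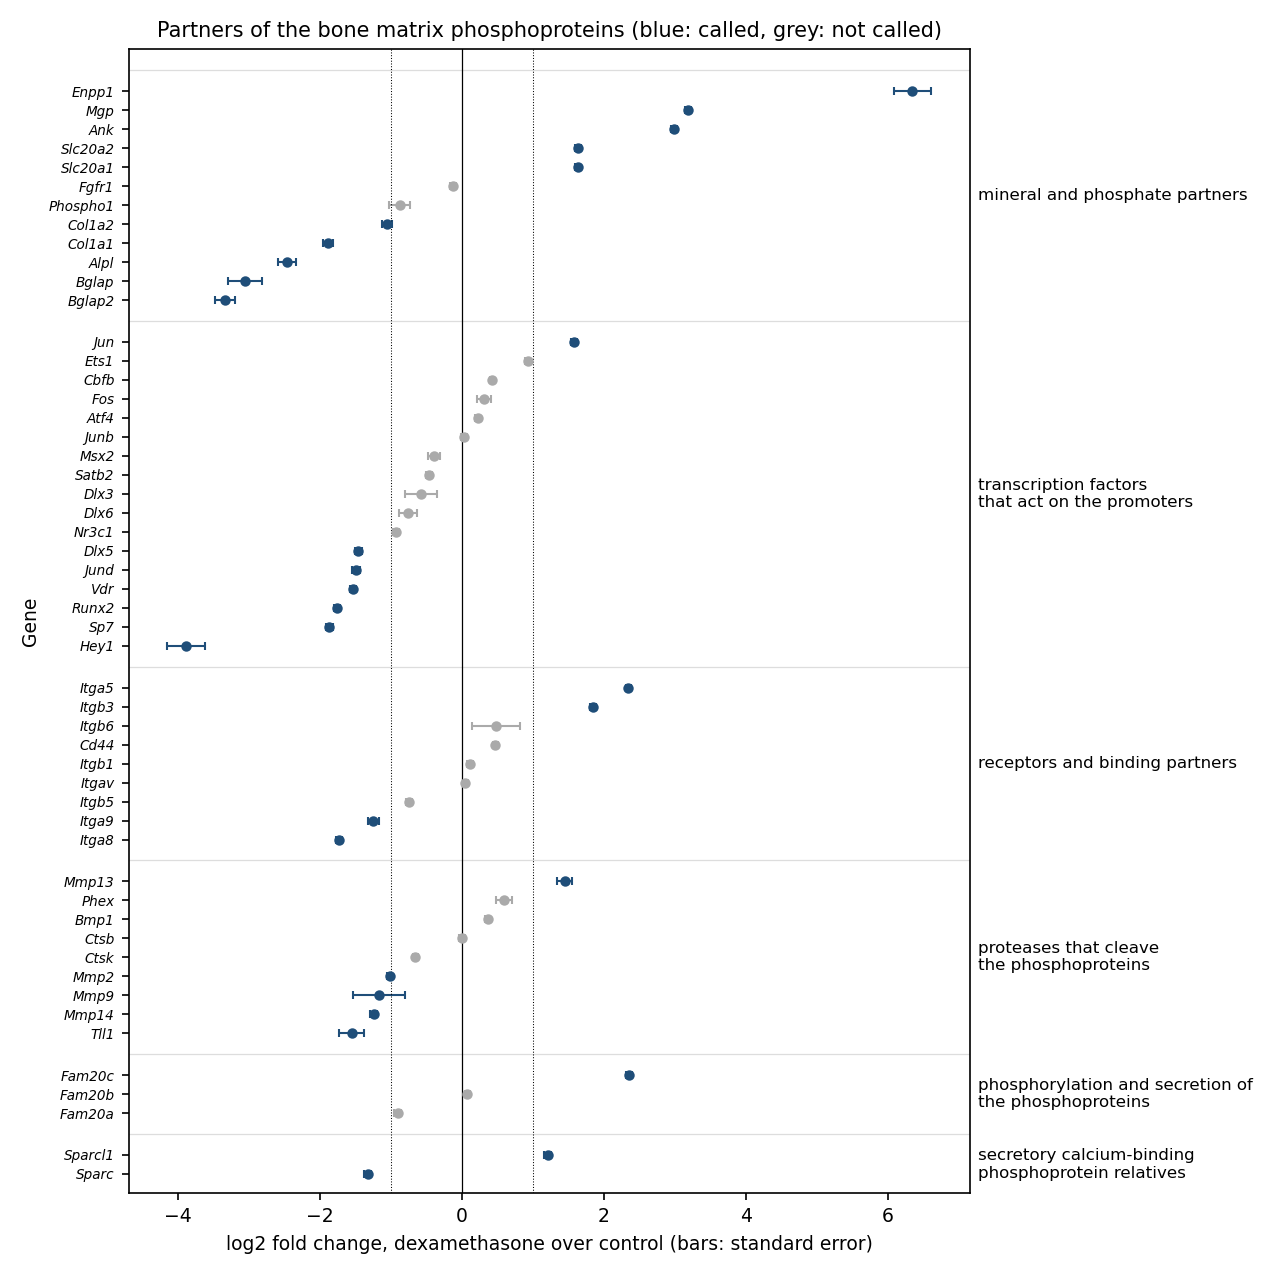
Log2 fold change, dexamethasone over control (horizontal axis, bars are the standard error of the fit), of tested partner genes grouped by list, with called genes in blue, others in grey and dotted lines at 1 and -1. Fam20c (2.36) stands apart within its list, and Mgp (3.18), Ank (2.99) and Enpp1 lie on the opposite side of the mineral list from Alpl (-2.45) and Bglap2 (-3.33).

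Spp1 and Dmp1 are also made by cells other than osteoblasts, so marker lists were counted beside them. Of 14 osteoblast markers, all were tested and 12 fell, none rose (median -1.87), and their summed level went from between 2274114 and 2411375 to between 870014 and 969157 normalized counts. Bglap, the gene of the protein used for sorting, was at 98.2 to 122 in control and 9.54 to 15.1 with dexamethasone. Of 15 osteocyte markers, 11 were in the table and 10 tested, with Fam20c and Capg higher and Irx5 (-3.29), Tnfrsf11b (-1.79) and Fbln7 (-1.07) lower (median -0.09). Their sum went from between 62844 and 66337 to between 76011 and 81679, and without Capg from between 57417 and 60373 to between 46270 and 50813, so its direction rests on Capg. The sum without Capg depends on single genes as well. Mean levels fell for Irx5 (11634 to 1188) and Gpc4 (18068 to 9554, not called). They rose for Pdpn (8165 to 13074, not called) and Fam20c (1469 to 7533).

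Osteoclasts, macrophages and hypertrophic chondrocytes are known sources of osteopontin. Of 10 osteoclast markers, 9 were in the table and 5 tested, with Siglec15, Atp6v0d2 and Itgb3 higher and Mmp9 lower (median 1.85), and the sum was between 15187 and 16027 in control and between 16455 and 17776 with dexamethasone. Ctsk, the most abundant of them, went from 13146 ± 309 to 8353 ± 222 (-0.65, not called), and the others summed to between 2327 and 2554 in control and between 8327 and 9204 with dexamethasone, mostly Itgb3. Calcr was at 0 in 1 control and in 2 dexamethasone libraries, and Acp5 was at 0 in all controls. Of 13 macrophage markers, 9 were in the table and 7 tested, with Cd68, Cd14, Trem2 and Mrc1 higher and Lyz2 lower (median 1.21), and the sum was between 21167 and 23154 in control and between 12088 and 13733 with dexamethasone. Most of that sum was Gpnmb, which went from 20520.0 ± 1004 to 11160.4 ± 748 (-0.88, not called), and without it the sum was between 1511 and 1539 in control and between 1707 and 1921 with dexamethasone. Ptprc and Itgam, which mark blood cells, were under 6 normalized counts in every library. Of 10 cartilage markers, all were in the table and 5 tested, with Sox9, Col2a1 and Mmp13 higher and Comp (-1.23) and Hapln1 (-1.42) lower. The sum of the 10 went from between 6538 and 7019 to between 22673 and 25551. Most of that sum was Sox9, with a mean of 4609 in control and 17406 with dexamethasone, and Col2a1, with 1517 and 5687. Col9a1 was at 0 in 1 control and in all dexamethasone libraries, and Col10a1, the marker of hypertrophy, was at 6.43 to 14.7 in control and 3.27 to 4.77 with dexamethasone. The part of these cells in the levels of Spp1 and Dmp1 was not tested.

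For Dspp, 9 odontoblast and enamel organ markers were listed, of which 5 were in the table and 2 tested, and neither was called by limma, although both passed on adjusted p alone. Amelx was at 0 in all controls and in 2 dexamethasone libraries. Of 10 endothelial markers, 8 were in the table and 5 tested, with 1 higher and none lower, and the sum was between 391 and 430 in control and between 487 and 522 with dexamethasone. Kdr made up most of that sum, with a mean of 348 in control and 414 with dexamethasone (log2 difference 0.25, not called). Tie1 had 0 reads in all controls and 0, 2 and 3 reads in dexamethasone replicates 1, 2 and 3. Cdh5 had 2, 0 and 0 reads in control and 2, 2 and 1 reads with dexamethasone. These counts of Tie1 and Cdh5 were all within the limit that a count of 0 allows.

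Genes whose pattern over the 6 libraries was most like each member's were found by the root mean square difference of centred log2(value + 1) profiles. For Spp1 these were Gm47041 (0.0716), Ifi207 (0.0824), an interferon-inducible gene, and Prkg2 (0.124), a cyclic GMP-dependent protein kinase known from the growth plate. Gm47041 was at 0 in all controls and at 31.6 to 36.05 with dexamethasone, so its likeness depends on the added 1. Prkg2 went from 1349 ± 33.7 to 43597 ± 587 normalized counts (SD, n = 3 each), and Ifi207 from 153 ± 12.97 to 5380 ± 207. For Dmp1 the nearest were Il18rap (0.320), a chain of the interleukin-18 receptor, Acsbg1 (0.379), an acyl-CoA synthetase, and Fam19a5 (0.393), which were several times farther from it than the nearest were from Spp1. Il18rap went from 163 ± 5.90 to 15130.3 ± 427 normalized counts.

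For Ibsp the nearest were Prtg (0.0249), Kdm6b (0.0304), a histone demethylase, and Col27a1 (0.0377), a fibrillar collagen of cartilage. Kdm6b, for example, went from 5971 ± 176 to 2453 ± 84.5 normalized counts. For Mepe they were Celsr2 (0.0848), Ckb (0.126) and Gm48739 (0.133), all at few reads and none called. With 3 libraries a group, these distances mostly record a difference between groups of like size.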

How the data were processed

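The table covers RNA sequencing of 6 libraries, 3 control and 3 dexamethasone. The authors deposited normalized values, a signal per gene made by dividing read counts by a DESeq2 size factor. The submitters' processing notes name STAR 2.7.10a, bcl2fastq, DESeq2 1.36.0 and GRCm39, and the library kit marks strand. The annotation release and whether reads were counted by strand are not given in the sources used here. Within a library, values were steps of what 1 read is worth, and dividing by that step gave whole reads for 100% of values (tolerance 0.001). Depth per library was between 72596611 and 89910728 reads, and intervals are exact Poisson or binomial ones that cover counting error only. Groups and replicate numbers came from the labels.

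Ensembl identifiers were matched to GENCODE M21, which gave a symbol for 28103 of 29616 genes and the exon lengths. Genes with a mean of at least 10 were tested with limma 3.58.1 (R 4.3.3, eBayes with trend) on log2(value + 1), which understates the change of low genes, with Benjamini-Hochberg adjustment over 17442 genes. Calls needed an adjusted p below 0.05 together with a change of at least 1 on the log2 scale, after the study's cut-offs. The planned main test on log2 values was kept, and the alternatives were edgeR 4.0.16 and DESeq2 1.42.0 run on those whole reads, beside other pseudocounts, filters, scalings, lengths, a replicate block and leaving out each library. The scripts were tested on simulated data. An exact permutation test of 3 against 3 cannot go below 0.1, so none is given.

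The members and gene lists were chosen with earlier results of these data known. Named genes were the 5 members, the 3 most abundant tested genes of each partner list, called list genes with a log2 change of at least 2, tested neighbours within 500 kilobases, and the 3 nearest profiles of each tested member. Other genes named, such as Phex, Bmp1, Acp5, Itgb3, Capg, Gpnmb and Gm42793, were chosen after their values were seen, as were the marker sums without 1 gene. Replicate numbers were not treated as pairs in the main test. Deviations of same-numbered libraries correlated at -0.0999, -0.105 and -0.0199. With 3 libraries a group this cannot exclude a pairing, such as one by litter under other numbers. Promoters came from RefSeq (GRCm38.p6). Protein sequences were not used here. The list counts include 1 gene that is not reported here by name.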

Additional observations from a re-analysis of the deposited data

How the results depend on the processing

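The calls for Spp1, Ibsp and Dmp1 and the direction of Mepe were kept under every alternative that gave them a value, and log2 differences were between 5.07 and 5.27 for Spp1, -1.39 and -1.23 for Ibsp, 7.02 and 7.21 for Dmp1 and -0.96 and -0.46 for Mepe. Values that moved by more than the replicate spread were 5.14 for Spp1, -1.38 for Ibsp and 7.05 for Dmp1 with libraries scaled to the same total, 5.07 for Spp1 and -1.39 for Ibsp after quantile normalization, and 7.02 for Dmp1 with a pseudocount of 5. These scalings shift the median of all genes by -0.11 and -0.08. The share of Spp1 per length was 93.9% in control and 99.7% with dexamethasone by the longest transcript, and 92.6% in control by coding length. A mean of at least 100 left 2170 called genes in place of 3894, since fewer genes are tested. Adjusted p alone gave 12645 genes, 21 partner genes higher and 28 lower, and 1 neighbour lower. Leaving out each library gave between 3888 and 3922 called genes. With a replicate block 3897 genes were called, and the block left the counts of called members, partner genes and neighbours as they were. With same-total scaling and quantile normalization in turn, signs were reversed for Aff1 (-0.092 and -0.17), Ctsb (-0.11 and -0.071), Fam20b (-0.034 and -0.10), Itgav (-0.066 and -0.016) and Pkd2 (-0.017 and -0.089). In edgeR they were reversed for Aff1 (-0.0038) and Ctsb (-0.021), and in DESeq2 for Ctsb (-0.0042). Leaving out 1 library gave between -0.014 and 0.051 for Aff1 and between -0.022 and 0.044 for Ctsb. None of these 5 genes was called. Without a filter on low values Dspp was also past the call rule in the higher direction, which made 3 members higher. That call came from 1, 0 and 0 reads in control and 5, 6 and 1 with dexamethasone. Nothing is read from it, since Dspp was near the floor and was chosen with this contrast known. Depth limits what can be said of Mepe and Dspp.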
